A study of Mus musculus with 8 samples.

Results

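The cells described here were the Pi16+ fibroblasts of mouse left ventricle, chosen by their own transcripts from single-cell RNA sequencing of heart tissue. A barcode was first taken as a fibroblast if it held 200 or more genes and at most 30% mitochondrial UMIs (unique molecular identifiers, each counting 1 captured transcript), if Dcn, Col1a1, Col3a1 and Gsn made up 1% or more of its UMIs, and if it held 3 or more Dcn UMIs. It also had to hold under 0.1% C1qa, C1qb and C1qc, under 1% S100a8 and S100a9, and at most 1 UMI of Kcnj8, Myh11 and Cdh5 together. Of these gated fibroblasts, those with 2 or more UMIs of Pi16 and Dpp4 together are called Pi16+ fibroblasts, and those with 0 UMIs of both are called Pi16- fibroblasts. The gate took 3550 of 20159 barcodes in all, of which 2420 came from the IR0h library and 1130 from the IR6h library.

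The study compared left ventricles of male C57BL/6 mice, 10 to 12 weeks old by its methods, in which the left anterior descending artery was tied for 30 min and then released (ischemia-reperfusion, IR), with ventricles of sham-operated mice. The labels name 4 samples IR0h and 4 samples IR6h, for 0 h and 6 h, whereas the methods describe sham and IR hearts taken 6 h after surgery, so whether IR0h stands for sham was not settled and the names IR0h and IR6h are kept. Each suspension pooled 3 hearts, and each condition was given as 1 matrix with no map from barcodes to its 4 samples. There was thus 1 library per condition and no replicate check. No test was made, and every interval below is a 95% interval that covers counting error only.

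Fibroblasts build and turn over the collagen and elastin scaffold between heart muscle cells. Pi16, a secreted or membrane-bound peptidase inhibitor, and Dpp4, a membrane dipeptidase (CD26), mark fibroblasts of the adventitia, the outer sheath of vessels, in many tissues, and such cells are often described as a reserve from which other fibroblasts arise. Fibroblasts next to injured tissue are also known to release chemokines that recruit neutrophils and monocytes.

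Pi16 (chr17:29317680-29330593, plus strand, GRCm38, GENCODE) and not Dpp4 (chr2:62330073-62412231, minus strand) decided membership. In IR0h, 2418 of 2420 Pi16+ fibroblasts held a Pi16 UMI and 173 (7.15%) held a Dpp4 UMI. In IR6h, all 1130 held Pi16 and 112 (9.91%, interval 8.23 to 11.8) held Dpp4. The level of Pi16 in the gate was 1996 CPM (UMIs per 1000000 UMIs, over the summed UMIs of all cells in the gate) in IR0h and 1124 CPM in IR6h, and that of Dpp4 was 16.4 and 8.93 CPM. Dpp4 was less abundant than in B cells of the same libraries (47.6 and 35.4 CPM), in which 19.2% and 15.4% of cells held a Dpp4 UMI, so most Pi16+ fibroblasts are described by Pi16 alone.

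The number of Pi16 and Dpp4 UMIs per fibroblast ran on without a gap at the gate. The median member held 8 UMIs in IR0h and 10 in IR6h. Just inside the gate lay 254 IR0h and 96 IR6h cells with 2 UMIs, and just outside it 361 and 123 cells with 1 UMI. The Pi16- group held 628 cells in IR0h and 201 in IR6h.

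**Figure D1:**
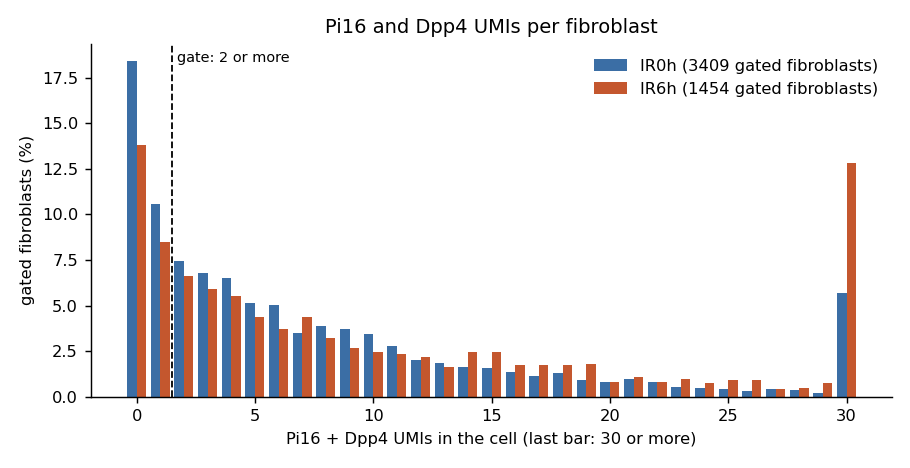
Share of gated fibroblasts (y axis, percent) by the number of Pi16 and Dpp4 UMIs in the cell (x axis; the last bar is 30 or more), for the IR0h library (3409 fibroblasts, blue) and the IR6h library (1454 fibroblasts, red). The dashed line marks the gate of 2 UMIs, and the bars beside it stand for 361 and 254 cells of IR0h and 123 and 96 cells of IR6h, so that the gate cuts a continuous range.

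Members made up 71.0% of gated fibroblasts in IR0h (interval 69.4 to 72.5) and 77.7% in IR6h (75.5 to 79.8). These shares were tied to depth. Pi16+ fibroblasts held a median of 5488 UMIs in IR0h and 14798.5 in IR6h, and Pi16- fibroblasts 4386.5 and 10514. After every cell was thinned to 2000 UMIs, 51.7% of IR0h and 38.0% of IR6h fibroblasts kept 2 or more Pi16 or Dpp4 UMIs, and 69.9% and 60.4% kept 1 or more. The order of the libraries thus turned once depth was equal. In B cells thinned in the same way, 13.6% of IR0h and 10.5% of IR6h cells held 1 or more such UMIs, and in macrophages 2.54% and 1.11%. In neutrophils it was 27.2% (28 of 103 cells) and 16.9%, and in endothelial cells 15.3% and 10.7%. Such UMIs were thus also found in cells that are not fibroblasts, and their source there was not tested. Over all gated fibroblasts, whatever their Pi16 count, Pi16 was at 1528 CPM in IR0h and 942 CPM in IR6h, a log2 ratio of -0.70 (-0.72 to -0.67), and Dpp4 was at 12.8 and 7.43 CPM.

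A few facts of the libraries touch every result. No barcode was a Pi16+ fibroblast in both libraries, although 30 barcodes occurred in both matrices. The study's stated upper limit of 2500 genes per cell would leave 1973 members in IR0h but only 80 in IR6h, where 92.9% of members held more genes than that, and it was not applied here. Markers of other cells were present at different levels: the 5 B cell genes summed to 80.6 CPM in IR0h and 16.8 CPM in IR6h against 6809 and 3726 CPM in B cells, and the 7 endothelial genes to 27.8 and 369 CPM, of which Fabp4 alone was 364 CPM in IR6h. The 10 macrophage and monocyte genes summed to 288 and 550 CPM, and S100a9 was at 34.0 and 300 CPM. The neutrophil list was at 668 and 298 CPM against 227 and 960 CPM in B cells, and the red cell list at 238 and 64.1 CPM. Of the neutrophil list, only G0s2 had a mean of 20 CPM or more in Pi16+ fibroblasts over the libraries (log2 ratio of IR6h to IR0h -1.52). The fall of that sum is therefore not a measure of neutrophil RNA.

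The name adventitial held only in part. Of 24 genes listed for adventitial fibroblasts, which do not include Pi16 or Dpp4, 20 could be compared with Pi16- fibroblasts in IR0h (mean of 20 CPM or more over both groups). Of these, 12 were past 2-fold higher in Pi16+ fibroblasts and 1, Igfbp5, was lower, with a median log2 ratio of 1.06 against 0.02 over all genes compared, of which 1.01% were higher and 0.732% lower. The same list gave 13 higher and 0 lower of 18 in IR6h, with a median of 1.59 against 0.01, where 1.52% of all genes were higher and 0.914% lower. The groups were split by Pi16 itself and the list was chosen with results of these cells known, so these counts are a description. The summed level of the list was 9580 CPM against 4422 CPM in IR0h and 7230 against 2559 CPM in IR6h. Yet members also carried the genes of interstitial heart fibroblasts, at a lower summed level than Pi16- cells. The summed interstitial list was at 9812 against 11910 CPM in IR0h and 7346 against 9358 CPM in IR6h, with median log2 ratios of -0.27 and -0.34. Some of its genes were nearly alike in both groups. Tcf21, a transcription factor of resident heart fibroblasts, was at 422 CPM in Pi16+ and 400 CPM in Pi16- fibroblasts of IR0h, the receptor gene Pdgfra at 309 and 284 CPM, and the basement membrane collagen Col15a1 at 814 and 843 CPM. Dcn (decorin), which the gate also used, was at 14687 and 18281 CPM, and Clec3b (tetranectin), the last of the markers given for these cells, at 1550 and 1248 CPM. Of 17 interstitial genes, 0 were higher and 3 lower past 2-fold in IR0h, and of 16 in IR6h 1 was higher and 1 lower. The gate thus held most of the gated fibroblasts of each library and most of their interstitial genes, with the adventitial genes graded across it, and the cells are therefore named by Pi16 and not as a cell type.

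To describe what else differed with Pi16, all genes were set against the Pi16- fibroblasts of the same library. In IR0h, 58 of 5737 genes (1.01%) were past 2-fold higher in Pi16+ fibroblasts and 42 (0.732%) lower. In IR6h, 88 of 5796 (1.52%) were higher and 53 (0.914%) lower. Among the 5041 genes compared in both libraries, 29 were higher in both, which is 29 of the 49 called in IR0h and of the 74 called in IR6h, and 14 were lower in both, of 21 and 32.

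The 15 genes most raised with Pi16 in both libraries encode proteins of several kinds, among them matrix, surface and secreted proteins and an enzyme. Cilp, which encodes an extracellular matrix protein of cartilage and heart, was at 82.1 CPM in Pi16+ and 10.9 CPM in Pi16- fibroblasts of IR0h, a log2 ratio of 2.92 (2.40 to 3.49), and at 105 and 11.2 CPM in IR6h, a ratio of 3.23 (2.65 to 3.88). Ly6c1, a GPI-anchored surface protein, was at 267 against 40.9 CPM in IR0h and 177 against 15.9 CPM in IR6h. Cd248 (endosialin), a surface glycoprotein of stromal cells, was at 165 against 26.8 CPM and 61.8 against 7.94 CPM. In all 3 genes the contrast was at least as large in IR6h as in IR0h.

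Postn, which encodes the matricellular protein periostin, was at 80.5 against 14.1 CPM in IR0h and 325 against 42.5 CPM in IR6h, so it was higher in IR6h in both groups. Sema3c, a secreted guidance ligand, was at 60.6 against 13 CPM and 60.3 against 7.0 CPM. The microfibril gene Mfap5 was far more abundant, at 1407 against 483 CPM and 2725 against 1001 CPM, with log2 ratios of 1.54 and 1.44. The remaining genes of this group were Tmem100, Adgrd1, Nbl1, Ackr3, Hmcn2, Gas7, Ugdh, Myoc and Aspn, with log2 ratios from 1.46 (Aspn) to 2.64 (Tmem100) in IR0h and from 1.01 (Gas7) to 3.30 (Tmem100) in IR6h. Ackr3 encodes a receptor that takes up CXCL12, Nbl1 a BMP antagonist, and Ugdh the enzyme that makes the UDP-glucuronate used for hyaluronan.

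Hyaluronan, elastic fibre and collagen genes differed less evenly. Of the hyaluronan genes, 3 of 4 compared in IR0h were higher in Pi16+ fibroblasts, with Has2, a hyaluronan synthase, at 52.6 against 10.9 CPM, Vcan (versican) at 218 against 101 CPM and Ptx3 (pentraxin 3) at 65.3 against 30.4 CPM. In IR6h, 0 of 6 passed 2-fold, and Has2 was at 39.0 against 31.8 CPM. Just under that limit, Vcan was still 1.97-fold higher in Pi16+ fibroblasts, while Ptx3 was 1.99-fold lower. Of the elastic fibre genes, 4 of 17 were higher in IR0h and 3 of 16 in IR6h, Efemp1 and Mfap5 among them. Of 13 further collagens, 0 differed past 2-fold in IR0h and 1, Col14a1, a fibril-associated collagen, in IR6h at 65.3 against 24.8 CPM.

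Fewer genes were lower with Pi16, and several of them encode secreted proteins. Igfbp3, which binds insulin-like growth factors, was at 9.83 CPM in Pi16+ and 121 CPM in Pi16- fibroblasts of IR0h, a log2 ratio of -3.63 (-3.92 to -3.34), and at 117 against 337 CPM in IR6h. Apoe (apolipoprotein E) was at 1832 against 7763 CPM and at 598 against 2149 CPM. Apoe was also at 2092 and 2296 CPM in B cells, above its level in Pi16+ fibroblasts, and the part of RNA from other cells in this difference was not tested.

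Cntfr, a receptor for ciliary neurotrophic factor, Tmem176a, Tmem176b, the complement gene C4b, the matrix protease Mmp3, Adm (adrenomedullin), Ifitm1 and Sept4 were lower as well, with log2 ratios from -1.99 (Cntfr) to -1.32 (Sept4) in IR0h. Of the interstitial list, Hsd11b1, which regenerates active glucocorticoid, was at 292 against 620 CPM in IR0h and 146 against 369 CPM in IR6h, and the chemokine gene Cxcl14 at 343 against 710 CPM and 365 against 679 CPM. Within the 80 Pi16+ and 51 Pi16- cells of IR6h with at most 2500 genes, Cntfr, Mmp3 and Sept4 were at log2 ratios of 1.61, 1.29 and 0.61. These ratios rest on few cells and are given without counts or intervals, so they are not read as a difference in the other direction. Pi16- fibroblasts of IR0h also held more hemoglobin RNA (Hbb-bs at 775 against 131 CPM) and more RNA of the heart muscle gene Myl2 (58.3 against 17.3 CPM), whose part in these differences was not tested.

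**Figure D2:**
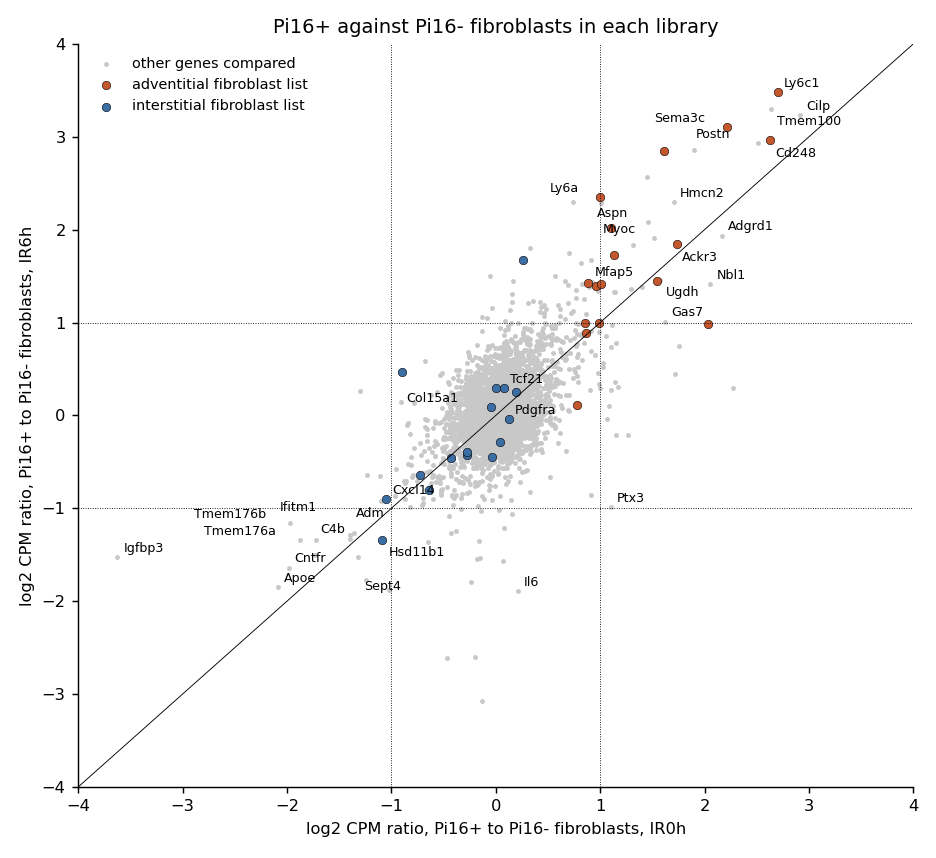
Each point is a gene compared in both libraries, with the log2 CPM ratio of Pi16+ to Pi16- fibroblasts in IR0h on the x axis and in IR6h on the y axis. Dotted lines mark 2-fold and the diagonal equal ratios; the adventitial list (red) lies mostly in the upper right, with Ly6c1 at 2.70 and 3.48, while Tcf21 of the interstitial list (blue) lies at 0.08 and 0.29.

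Since the gate cuts a continuous range, the gated fibroblasts were also split by the number of Pi16 UMIs left after thinning each cell to 2000 UMIs. The bins of 0, 1, 2 to 3, 4 to 5, and 6 or more UMIs held 1006, 596, 731, 397 and 574 cells in IR0h and 567, 319, 293, 106 and 140 in IR6h. The summed adventitial list was at 5590, 6979, 8525, 9686 and 13591 CPM over these bins in IR0h, and at 4168, 6076, 7352, 9602 and 13679 CPM in IR6h. It was thus higher at every step in both libraries. Between the outer bins, 102 of 5754 genes (1.77%) were past 2-fold higher with more Pi16 in IR0h and 76 (1.32%) lower, and in IR6h 280 of 5844 (4.79%) were higher and 150 (2.57%) lower. Of the adventitial genes, 17 of 21 and 19 of 21 were higher. The bins were chosen after the data were seen.

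Cells with the most Pi16 held more Ly6c1, Cd248, Sema3c and Mfap5 and less of the glucocorticoid and chemokine genes of the interstitial list. Past 2-fold, 4 of 18 elastic fibre genes were higher and 1 lower in IR0h, and 7 and 1 of 18 in IR6h. Of the hyaluronan genes, 4 of 6 were higher in IR0h, but in IR6h 0 of 6 were higher and 1 lower. Of 13 collagens, 0 differed in IR0h, and 1 was higher and 2 lower in IR6h. Of the list with Cilp and Postn, 2 of 4 were higher in IR0h and 1 of 3 in IR6h, and 0 rose over all 5 bins. Ly6c1 was at 75 CPM in the lowest and 531 CPM in the highest bin of IR0h and at 51.5 and 520 CPM in IR6h, and Cd34 at 610 and 1383 CPM and at 239 and 1037 CPM. Hsd11b1 was at 489 CPM in the lowest and 178 CPM in the highest bin of IR0h and at 223 and 110 CPM in IR6h. Tcf21 was at 413 CPM in the lowest and 449 CPM in the highest bin of IR0h. The interstitial list as a whole went from 10903 to 8972 CPM in IR0h and from 7738 to 7334 CPM in IR6h.

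In IR6h all 4 neutrophil chemokine genes were past 2-fold lower in the bin of most Pi16 than in the bin without it, where 2.57% of all genes were lower. The same held for 5 of 14 NF-kB targets, 2 of 7 IL-1 family genes, 2 of 9 IL-6 family genes and 1 of 5 monocyte and eosinophil chemokine genes, of which Ccl11 was at 72.7 CPM in the lowest and 144 CPM in the highest bin. The neutrophil chemokine list was at 12151 CPM in the bin without Pi16 and at 3450 CPM in the bin of 6 or more. Cxcl5 was at 4433, 1378, 1224, 738 and 297 CPM over the 5 bins, Ptx3 at 2299, 973, 870, 628 and 400 CPM, and Il6 at 439, 158, 72.8, 114 and 30.2 CPM. Cxcl5 and Ptx3 were lower at every step, and Il6 at every step but the one to the bin of 4 to 5. In IR0h, Ptx3 was at 39.1 CPM without Pi16 and 98.7 CPM with 6 or more UMIs, the opposite order. A cell whose Pi16 level changed would have moved between bins, and this cannot be told apart here from a difference in response among cells of fixed Pi16 level.

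**Figure D3:**
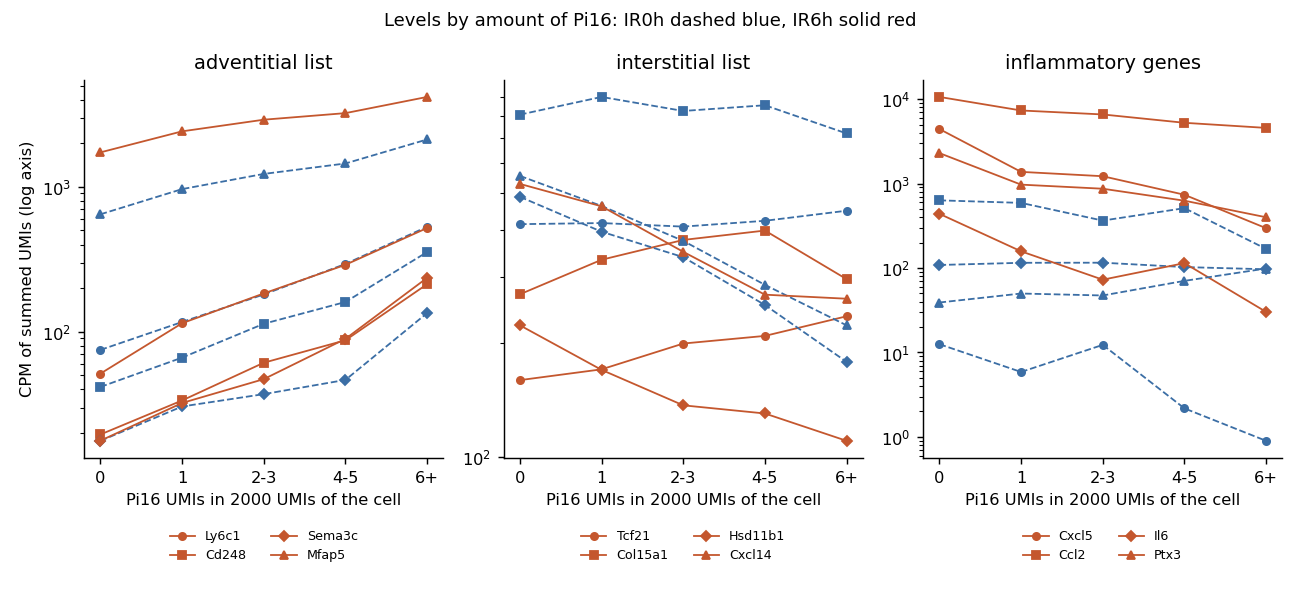
Levels (y axis, CPM, log axis) of 4 adventitial, 4 interstitial and 4 inflammatory genes in gated fibroblasts binned by Pi16 UMIs among 2000 UMIs of the cell (x axis), in IR0h (dashed blue) and IR6h (solid red). Ly6c1, Cd248, Sema3c and Mfap5 are higher with more Pi16 in both libraries, Tcf21 lies between 407 and 449 CPM in IR0h, and in IR6h Cxcl5 goes from 4433 to 297 CPM.

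Few members held both Pi16 and Dpp4. They numbered 171 in IR0h and 112 in IR6h and were set against members without Dpp4. Fn1 (fibronectin) was at 343 against 98.4 CPM in IR0h and 213 against 101 CPM in IR6h, Efemp1 (fibulin 3) at 247 against 72.9 CPM and 189 against 57.8 CPM, and Sema3c at 155 against 52.1 CPM and 153 against 47.9 CPM. Col15a1 was lower, at 404 against 851 CPM and 214 against 338 CPM, and so were Hsd11b1 (96.2 against 310 CPM and 56.1 against 158 CPM) and Cxcl14 (127 against 362 CPM and 139 against 395 CPM). Other interstitial genes were not lower: Tcf21 was at 567 against 410 CPM and 228 against 179 CPM, and Dpep1 at 706 against 686 CPM and 722 against 636 CPM. Cilp, which was higher with Pi16, was lower with Dpp4, at 38.6 against 86.1 CPM and 31.5 against 115 CPM. The cells with Dpp4 also held more Pi16, at 3124 against 1898 CPM and 1872 against 1025 CPM. No comparison was made at equal Pi16, so a difference with Dpp4 cannot be told apart from one with Pi16. These cells were deeper, with a median of 6304 against 5439 UMIs in IR0h and 17617 against 14516.5 in IR6h. In IR0h they held more Cd79a of B cells (94.5 against 22.2 CPM) and more of the mesothelial gene Msln (16.3 against 0.459 CPM). Without any cell that held a B, T or mesothelial UMI, 154 and 99 such cells remained, in which Fn1 was at 373 and 226 CPM and Efemp1 at 253 and 192 CPM, against 99.1 and 99.5 CPM and 72.4 and 58.3 CPM in the other members, so these differences were as large.

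The second comparison set the Pi16+ fibroblasts of IR6h against those of IR0h. The minimum of 2 UMIs was the same in both, although members were deeper in IR6h (median 14798.5 against 5488 UMIs). Members of IR6h could thus enter with a smaller share of Pi16. Of 5887 genes compared, 577 (9.80%) were past 2-fold higher in IR6h and 489 (8.31%) lower, with a median log2 ratio of 0.06 over all genes. Centred on that median, the balance turned, with 519 higher and 559 lower. In Pi16- fibroblasts, 810 of 5861 (13.8%) were higher and 721 (12.3%) lower. Of the 577 genes, 519 were also higher in Pi16- fibroblasts, and 408 of the 489 were also lower there. B cells of the same libraries served as a reference for RNA that is not of fibroblasts, although their own expression may also have differed. No limit was set on genes of other cells in them, and doublets among them were not removed. The 10 macrophage and monocyte genes summed to 4168 and 2946 CPM in these B cells. Past 2-fold the same way in B cells were 169 of the 577 higher genes (29.3%) and 205 of the 489 lower genes (41.9%). Of the 577, 89 were at or below the B cell level in IR6h.

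**Figure D4:**
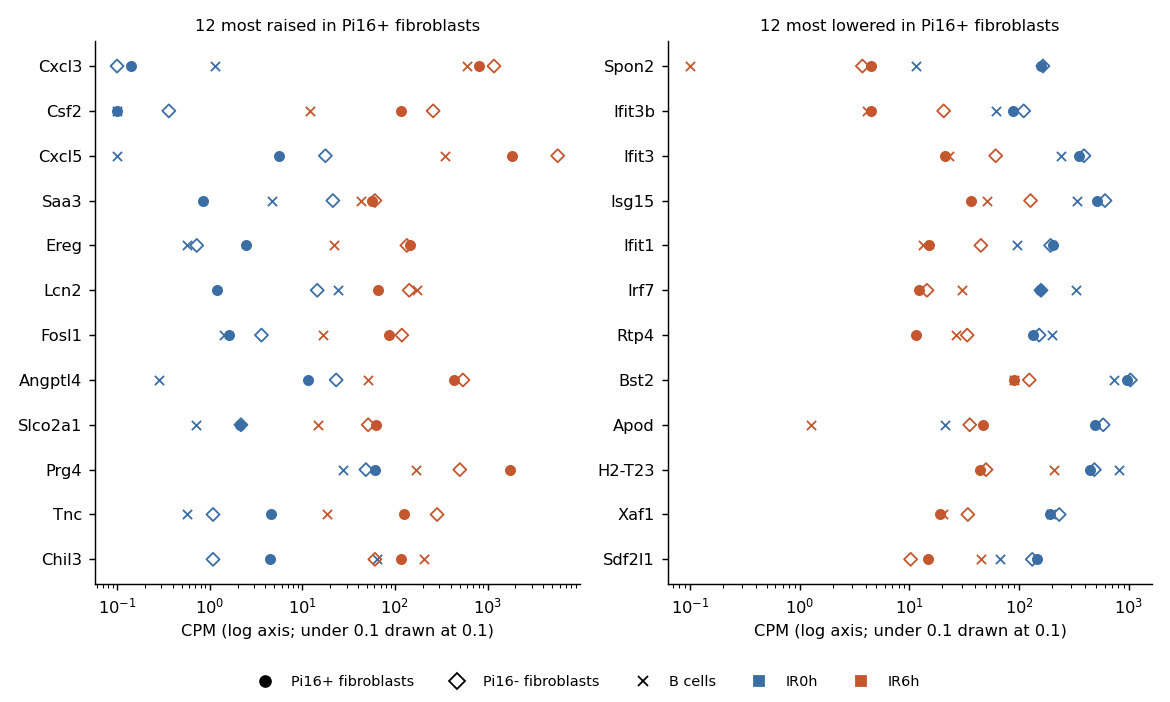
Levels (x axis, CPM, log axis) of the 12 genes most raised (left) and 12 most lowered (right) in Pi16+ fibroblasts between IR0h (blue) and IR6h (red), in Pi16+ fibroblasts (filled circles), Pi16- fibroblasts (diamonds) and B cells (crosses); values under 0.1 CPM are drawn at 0.1. Cxcl3 goes from 0.140 to 802 CPM, while the interferon genes Isg15 and Ifit1 are lower in IR6h in B cells also.

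Chemokine genes were among the most raised. Of the 4 neutrophil chemokine genes, 3 were past 2-fold higher in IR6h. Cxcl5 was at 5.55 CPM in IR0h and 1813 CPM in IR6h, a log2 ratio of 8.35 (8.03 to 8.69), and Cxcl2 at 65.8 and 1502 CPM. Cxcl3 was at 0.140 CPM, which is 2 UMIs, and at 802 CPM, a log2 ratio of 12.48 with a counting interval of 10.63 to 15.53. Cxcl1 was already at 1622 CPM in IR0h and was at 2957 CPM in IR6h, under 2-fold. In B cells of IR6h, Cxcl2 was higher (3125 CPM) than in Pi16+ fibroblasts and Cxcl3 nearly as high (596 CPM), whereas Cxcl5 (346 CPM) and Cxcl1 (347 CPM) were lower.

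The chemokine genes that recruit monocytes were raised as well. Ccl2 was at 418 CPM in IR0h and 7547 CPM in IR6h, a log2 ratio of 4.18 (4.14 to 4.21), and Ccl7 at 310 and 1826 CPM. Ccl11, an eosinophil chemokine, was at 66.4 and 80.9 CPM. Of 6 genes of this list, 3 were higher and 1, Ccl5, lower, at 36.6 and 4.14 CPM. In the 171 and 112 cells with both Pi16 and Dpp4 the log2 ratio of Ccl5 was 1.43. That value rests on few cells and is given without an interval. Of the IL-6 family and its signalling genes, 2 of 9 were higher and 1 lower. Lif was at 4.00 and 52.9 CPM, and Il6, at 113 and 174 CPM, did not pass 2-fold. Il33, an alarmin held in fibroblast nuclei, was at 33.0 and 248 CPM. Csf2, the gene of the growth factor GM-CSF, was at 1 UMI in IR0h and at 116 CPM in IR6h (log2 ratio 10.69, counting interval 8.21 to 16.00), with 12.5% of its IR6h UMIs in 1 cell.

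The promoters of Cxcl1 and Cxcl3 are shown because both hold close matches to the NF-kB motif, the site of a factor that drives inflammatory genes. The sequences are the 250 bases before the RefSeq start on GRCm38.p6 (chr5:90890995-90891244, plus strand, and chr5:90785851-90786100, plus strand), read on the gene's strand, with each match in capitals. The motif searched, on both strands, was GGGA, any 4 bases and CC, and overlapping matches run together.
Cxcl1: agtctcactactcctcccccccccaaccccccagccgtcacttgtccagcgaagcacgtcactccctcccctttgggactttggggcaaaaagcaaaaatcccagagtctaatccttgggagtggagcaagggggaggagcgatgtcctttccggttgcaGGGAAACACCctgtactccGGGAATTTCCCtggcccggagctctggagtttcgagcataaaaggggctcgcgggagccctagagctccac
Cxcl3: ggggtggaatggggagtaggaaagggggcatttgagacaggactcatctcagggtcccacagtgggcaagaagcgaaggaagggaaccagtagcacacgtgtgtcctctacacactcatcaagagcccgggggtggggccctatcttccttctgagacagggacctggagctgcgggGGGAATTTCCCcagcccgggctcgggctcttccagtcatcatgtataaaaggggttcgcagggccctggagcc
The motif was found before the start of 3 of the 3 neutrophil chemokine genes with an entry (Cxcl1, Cxcl2 and Cxcl3), and Cxcl5 had no entry. It was found in 0 of the 3 monocyte and eosinophil chemokine genes with an entry. Ccl2, Ccl7, Ccl11 and Ccl5 had no entry and were not searched. Of all 32851 promoters searched, 17.6% held the motif. A match describes the letters only.

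Interferon-induced genes were the group most clearly lower in IR6h. All 10 compared were past 2-fold lower in Pi16+ fibroblasts, with a median log2 ratio of -3.29, and their summed level was 10785 CPM in IR0h and 1139 CPM in IR6h. Isg15, a ubiquitin-like protein that is attached to others during the antiviral response, was at 513 and 36.6 CPM, a log2 ratio of -3.81 (-3.93 to -3.70). Ifit1 and Ifit3, which bind foreign RNA, were at 203 and 15.1 CPM and at 351 and 21.1 CPM, and Ifi27l2a, the most abundant of the list, at 8199 and 900 CPM. The transcription factor gene Irf7 was at 155 and 12.1 CPM, and Bst2 (tetherin) at 955 and 90.5 CPM. Rtp4, Xaf1 and Ifit3b, interferon-induced genes outside the list, were also among the 12 most lowered genes, with H2-T23, a nonclassical MHC gene, and Sdf2l1, a chaperone gene of the endoplasmic reticulum. Ifit3 and Ifit3b are close copies, between which reads may have been split.

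B cells showed the same order, with Isg15 at 336 and 51.4 CPM, Irf7 at 331 and 30.3 CPM, and the whole list at 6676 and 897 CPM. The part of RNA from other cells in the fibroblast values was not tested. In Pi16- fibroblasts, 9 of 11 genes were lower, with log2 ratios of -2.25 for Isg15 and -3.98 for Ifi27l2a against -3.81 and -3.19 in Pi16+ fibroblasts. Of what remained in IR6h, 10.4% of the Isg15 UMIs and 19.1% of the Ifit1 UMIs of Pi16+ fibroblasts lay in 1 cell.

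The promoters of Isg15 and Ifit1 are shown as examples, since each holds several copies of the core of the interferon-stimulated response element, which is GAAA, any 2 bases and GAAA, searched on both strands in the 250 bases before the RefSeq start on GRCm38.p6 (chr4:156200819-156201068, minus strand, and chr19:34640639-34640888, plus strand). Capitals mark the 3 matches of Isg15, which overlap, and the 2 of Ifit1, which lie on the opposite strand.
Isg15: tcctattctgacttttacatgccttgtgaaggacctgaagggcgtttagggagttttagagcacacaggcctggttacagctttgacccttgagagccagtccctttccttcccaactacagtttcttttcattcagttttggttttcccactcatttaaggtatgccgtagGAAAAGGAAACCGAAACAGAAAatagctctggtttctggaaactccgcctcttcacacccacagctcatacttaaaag
Ifit1: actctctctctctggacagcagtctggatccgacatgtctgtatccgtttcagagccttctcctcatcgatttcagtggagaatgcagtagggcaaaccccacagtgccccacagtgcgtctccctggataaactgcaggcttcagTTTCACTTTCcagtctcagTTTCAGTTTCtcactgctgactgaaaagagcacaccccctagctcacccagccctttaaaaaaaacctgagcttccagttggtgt
Of 8 interferon genes with an entry, 5 held the motif (Isg15, Ifit1, Ifit3, Bst2 and Rsad2), against 2.98% of all promoters.

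Matrix genes moved in both directions. Of the fibroblast genes outside the gate, 4 of 13 were past 2-fold lower and 0 higher, with Clec3b at 1550 and 452 CPM, Lum (lumican) at 1280 and 575 CPM and Mmp2 at 700 and 317 CPM. Eln (elastin) was at 252 and 29.4 CPM, a log2 ratio of -3.09 (-3.23 to -2.96), while Lox, the enzyme that crosslinks collagen and elastin, was at 26.3 and 155 CPM. Spon2, a secreted matrix protein, was the most lowered gene of all named, at 159 and 4.52 CPM, and Apod (apolipoprotein D) was at 491 and 47.3 CPM.

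Of the provisional matrix list, 5 of 11 genes were higher and 1 lower: Tnc (tenascin C) was at 4.63 and 124 CPM, Ctgf (CCN2) at 429 and 1852 CPM, Thbs1 (thrombospondin 1) at 657 and 2320 CPM and Postn at 80.5 and 325 CPM. Of the hyaluronan genes, 4 of 6 were higher, with Ptx3 at 65.3 and 1200 CPM, the hyaluronan receptor Cd44 at 22.2 and 191 CPM and Vcan at 218 and 910 CPM. Prg4, which encodes the lubricating protein lubricin, was at 61.0 and 1750 CPM, a log2 ratio of 4.84 (4.74 to 4.94). Timp1, an inhibitor of matrix proteases, was at 138 and 2661 CPM. The basement membrane collagens Col4a1 and Col4a2 were at 828 and 1585 CPM and at 274 and 578 CPM, of which only the second passed 2-fold.

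Among growth factors 7 of 14 were higher and 3 lower, with Ereg (epiregulin) at 2.46 and 145 CPM, Inhba (the activin A subunit) at 28.6 and 364 CPM and Hbegf at 8.70 and 50.5 CPM, whereas Igf1 was at 213 and 106 CPM and Gdf15 at 64.9 and 13.9 CPM. Angptl4, a secreted inhibitor of lipoprotein lipase, was at 11.7 and 429 CPM, the AP-1 gene Fosl1 at 1.61 and 85.9 CPM, and the prostaglandin transporter gene Slco2a1 at 2.11 and 62.9 CPM. The acute phase gene Saa3 was at 0.842 and 56.0 CPM, with 16.1% of its IR6h UMIs in 1 cell, and Lcn2, which binds iron-carrying siderophores, at 1.19 and 64.9 CPM. Chil3, a macrophage and neutrophil gene, was at 4.42 and 117 CPM in Pi16+ fibroblasts but at 63.9 and 206 CPM in B cells. Lcn2 was likewise higher in B cells of IR6h (171 CPM) than in Pi16+ fibroblasts, so neither value exceeded the level of RNA seen in cells of another type.

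Stress genes did not move as 1 group. Of the immediate early genes, 11 of 18 were past 2-fold lower in IR6h and 1 higher, with a median log2 ratio of -1.08. Fos was at 4152 and 1394 CPM, Egr1 at 3563 and 1410 CPM and Atf3 at 411 and 159 CPM, while Maff was at 45.9 and 129 CPM. Of the metallothionein, NRF2 and iron genes, 6 of 11 were higher and 0 lower. Mt2, a metal-binding protein, was at 344 and 5720 CPM (log2 ratio 4.06, 4.02 to 4.10), Mt1 at 2243 and 8027 CPM, and the cystine transporter gene Slc7a11 at 2.25 and 41.0 CPM. Heat-shock chaperones gave 2 higher and 1 lower of 12, with Hspa1a, which has a close copy in Hspa1b, at 167 and 492 CPM and Dnajb1 at 273 and 77.6 CPM. Immediate early genes are known to respond to tissue dissociation, and the part of cell handling was not tested.

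Of 21 adventitial genes compared between the libraries in Pi16+ fibroblasts, 7 were past 2-fold lower in IR6h and 0 higher, with a median log2 ratio of -0.59, and of 17 interstitial genes 6 were lower and 1 higher (median -0.70). Tppp3 was at 197 and 26.3 CPM, Cd248 at 165 and 61.8 CPM and Ly6a (Sca-1) at 3315 and 1297 CPM, whereas Sema3c was at 60.6 and 60.3 CPM and Mfap5 at 1407 and 2725 CPM. The summed list without Ly6a was also set out over the 5 bins of thinned Pi16 UMIs. It was at 3433, 4321, 5446, 6325 and 9432 CPM in IR0h. In IR6h it was higher in every bin, at 3568, 5026, 6053, 7632 and 10905 CPM. With Ly6a the list was at 5590, 6979, 8525, 9686 and 13591 CPM in IR0h. In IR6h it was then at 4168, 6076, 7352, 9602 and 13679 CPM, lower in every bin but the highest. The order of the libraries at like Pi16 thus depended on the genes summed. Mfap5, which was higher in IR6h, was kept in both sums, and no sum without it was made.

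The responses of Pi16+ and Pi16- fibroblasts were then set side by side. Both groups were set by fixed UMI counts, while the median depth of Pi16- cells was 4386.5 UMIs in IR0h and 10514 in IR6h. Cells with 0 UMIs made up 18.4% and 13.8% of gated fibroblasts, so the ratios may compare cells that were not selected alike. The 6 genes in each direction that are named first were chosen for the size of their difference, which is given as a description. The log2 ratio of IR6h to IR0h was larger in Pi16+ than in Pi16- fibroblasts for Saa3 (6.05 against 1.51), Lcn2 (5.77 against 3.30) and Igfbp3 (3.57 against 1.47), each of which started lower in Pi16+ cells. Igfbp5, Tppp3 and Inmt were also in this group, as their ratios were less negative in Pi16+ cells. Tppp3, for example, was at -2.91 against -4.74.

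In the other direction stood Gal, Tnc, Cxcl10, Lif, Rsad2 and Iigp1, of which Rsad2 was on the interferon list. Tnc was at 4.74 in Pi16+ and 8.03 in Pi16- fibroblasts, a difference of -3.29 (-4.97 to -1.62), and Lif at 3.72 against 6.29. Both genes were low in IR0h, where Tnc was 4.26-fold and Lif 1.58-fold lower in Pi16- than in Pi16+ fibroblasts. Their ratios in Pi16- fibroblasts thus rest on few UMIs of IR0h. Cxcl10, an interferon-induced chemokine, was lower in IR6h in Pi16+ fibroblasts, at 127 and 24.2 CPM, but at 139 and 204 CPM in Pi16- fibroblasts, a difference of log2 ratios of -2.94 (-3.19 to -2.69). Rsad2 (viperin) was at 62.9 and 7.24 CPM against 72.1 and 43.9 CPM, and Iigp1 was at 78.1 and 8.98 CPM against 108 and 55.1 CPM. Gal (galanin) had 86.8% of its IR6h UMIs of Pi16+ fibroblasts in 1 cell. All of these differences are between single libraries, the 201 Pi16- cells of IR6h are few, and none of them was tested. Within the cells of at most 2500 genes, the log2 ratio of Igfbp3 in Pi16+ fibroblasts was 0.84, and those of Isg15 and Ifit1 in Pi16- fibroblasts were -0.24 and -0.30.

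Il6 and Ptx3 showed the same order. Il6 was at 113 CPM in Pi16+ and 97.4 CPM in Pi16- fibroblasts of IR0h but at 174 and 648 CPM in IR6h, and Ptx3 at 65.3 and 30.4 CPM but at 1200 and 2386 CPM. Of the neutrophil chemokines, Cxcl5 differed between the groups in IR6h (1813 against 5710 CPM), yet its ratio to IR0h was alike in both, at 8.35 and 8.33, with an interval of the difference of -0.49 to 0.54.

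**Figure D5:**
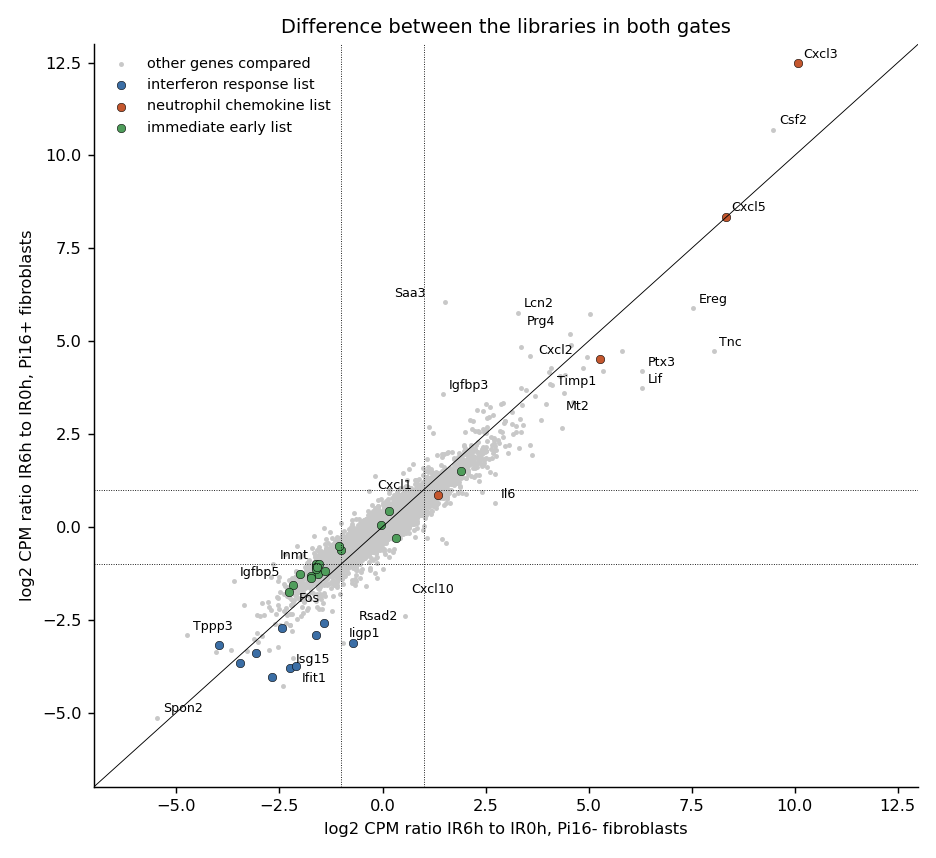
Each point is a gene, with the log2 CPM ratio of IR6h to IR0h in Pi16- fibroblasts on the x axis and in Pi16+ fibroblasts on the y axis; counts of 0 are set to 3 UMIs, which applies to Cxcl3 in Pi16- fibroblasts of IR0h. Dotted lines mark 2-fold; Cxcl5 lies on the diagonal at 8.33 and 8.35, while Tnc (8.03 and 4.74) and Isg15 (-2.25 and -3.81) lie below it and Saa3 (1.51 and 6.05) above it.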

How the data were processed

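Droplet single-cell RNA sequencing (10×) of left ventricular cells was deposited as 1 gene-by-barcode matrix for each condition. Its values are UMI counts, which the authors made with Cell Ranger and the mm10 genome, per the submitters' processing notes and methods; the matrix headers name version 3.1.0, while the study's reporting summary names version 2.1.2. The counts are raw and hold 27998 genes. The depth was 58653308 UMIs over 11620 barcodes in IR0h and 75033226 UMIs over 8539 barcodes in IR6h.

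UMIs were summed over the cells of each gate and scaled to CPM. Genes with a mean of 20 CPM or more over both sums were compared, and a gene was called past a CPM ratio of 2 in either direction. With 1 library per condition no test was run, and the study's own cell-level tests were not repeated. Intervals (95%) were exact Poisson for CPM, Clopper-Pearson for shares and conditional binomial for ratios, and those of differences between log2 ratios came from the 4 counts. A count of 0 was set to 3 UMIs in a ratio. Thinning drew 2000 UMIs per cell and left out 105 and 29 shallower fibroblasts. Cells taken as B cells, by their own Cd79a, Cd79b and Ms4a1 UMIs, served as a reference for RNA that is not of fibroblasts, and no empty droplets were used. The B cells had no limit on fibroblast or macrophage genes. Macrophages, neutrophils and endothelial cells were likewise taken by their own markers, with under 3 Dcn UMIs. No doublets were removed beyond the gate, and the removal of high simulated-doublet scores was an alternative.

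Named between gates were the 15 most raised and 10 most lowered genes in IR0h that had 50 CPM or more in the higher gate and passed 2-fold the same way in both libraries. Between libraries the 12 most raised and 12 most lowered with 50 CPM or more in the higher library were named, and of each of 41 gene lists the counts and some members by size; as were the 6 genes in each direction whose log2 ratios between libraries differed most between the gates (50 CPM or more in 1 of the 4 sums, interval without 0). Red-cell, mitochondrial, ribosomal, Xist and Y-linked genes were left out of these choices, and other named genes were picked once their values were known. The members and lists were chosen with earlier results of these data known. Gene positions were taken from GENCODE (GRCm38) and promoters from RefSeq (GRCm38.p6). Alternatives covered gene and mitochondrial limits, the Pi16 minimum, thinning, cell weights, doublets, leukocyte RNA, scaling and the CPM floor. The sums, thinning and intervals were tested on simulated data. Python 3.11.15, numpy 2.4.6, scipy 1.17.1, pandas 2.3.3, scanpy 1.11.5 and matplotlib 3.10.9 were used.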

Additional observations from a re-analysis of the deposited data

Results flagged for a closer look

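Of 461 genes scanned, 5 had a ratio past 2-fold in one group and, beyond counting error, a ratio on the opposite side of equality in the other group compared, and in none of them was the difference tested. Cxcl10, an interferon-induced chemokine, was lower in IR6h in Pi16+ fibroblasts and higher in Pi16- fibroblasts, and its log2 ratios differed by -2.94. The hyaluronan synthase gene Has2 likewise was at 52.6 and 39.0 CPM in Pi16+ but at 10.9 and 31.8 CPM in Pi16- fibroblasts, a difference of -1.98. The other 3 genes changed sides between the libraries. Il6 was higher in Pi16+ than in Pi16- fibroblasts of IR0h and lower in IR6h, a difference of 2.11 between the log2 ratios, and Ptx3 did the same, with a difference of 2.09. Fst (follistatin), which binds activins, was at 12.1 CPM in Pi16+ and 29.7 CPM in Pi16- fibroblasts of IR0h and at 77.5 and 64.4 CPM in IR6h, a difference of -1.56.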

How the results depend on the processing

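The share of gated fibroblasts in the gate depended on depth and on the minimum: in IR0h it was 68.2% with at most 2500 genes per cell, 63.5% with 3 or more UMIs, 5.02% with 1 UMI of each of Pi16 and Dpp4, and 51.7% after thinning, and in IR6h 53.0%, 71.1%, 7.70% and 38.0%, or 60.4% for 1 or more UMIs after thinning. Counts of genes past 2-fold followed the CPM floor and the number of cells. Pi16+ against Pi16- fibroblasts of IR0h gave 165 higher and 136 lower with 1 UMI of each transcript, 24 and 21 with a floor of 50 CPM, and 539 and 496 with no floor. In IR6h this gave 193 and 126, 50 and 23, and 801 and 579, and 968 and 553 with at most 2500 genes, when 80 and 51 cells remained. After thinning the IR6h counts were 191 and 154. Between libraries, Pi16+ fibroblasts gave 315 higher and 257 lower with a floor of 50 CPM and 1559 and 2126 with no floor, which lowered the share of calls that were higher from 54.1% to 42.3%; centring on the median ratio gave 519 and 559 (48.1%). Pi16- fibroblasts gave 423 and 370, and 1438 and 2074, with 1130 lower under the gene limit. Changes of sign were few. With at most 2500 genes Cntfr, Mmp3 and Sept4 went to log2 ratios of 1.61, 1.29 and 0.61 between the gates of IR6h, Igfbp3 to -0.0633 between the libraries in Pi16- fibroblasts, and the B cell list there to 0.38. The macrophage list there went to -0.0201 in cells with no Ptprc and at most 2 Lyz2 UMIs, and Ly6c1 there to 0.10 after thinning. Causes were not tested beyond the fewer cells and genes. Others past 2-fold that turned were, with 1 UMI of each transcript, Ccl5 (-0.02 between the gates of IR0h and 1.43 between the libraries in Pi16+ fibroblasts) and Lyz2 (-0.93 between the gates of IR6h), and, with doublets removed, Il1a (0.94 there). With at most 2500 genes, Fst (-2.35), Hbegf (-0.04), Timp3 (-0.49), Oasl2 (0.05) and Usp18 (0.32) turned between the libraries in Pi16- fibroblasts. All alternatives were planned, other than Pi16 alone, the Pi16 bins, the cells without B, T or mesothelial UMIs and those of at least 2000 UMIs, which were added after seeing the data. No paired analysis was possible because each condition is 1 library.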

Other observations

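Further gene lists were compared in Pi16+ fibroblasts between the libraries, where 9.80% of all genes were past 2-fold higher and 8.31% lower in IR6h. The IL-1 family gave 3 of 4 genes higher in IR6h, among them the receptor gene Il1r1 at 46.4 and 116 CPM. Il1b, at 27.3 and 383 CPM, was far higher in B cells (233 and 1423 CPM). Of the NF-kB targets, 6 of 14 were higher and 0 lower, with Sod2, the mitochondrial superoxide dismutase, at 72.4 and 347 CPM and the adhesion receptor gene Icam1 at 46.3 and 116 CPM. Ptgs2, the inducible prostaglandin synthase, was at 86.1 and 378 CPM, and Ptgis, which makes prostacyclin, at 321 and 648 CPM. The oncostatin M receptor gene Osmr was at 55.3 and 148 CPM, while Socs3, which limits this signalling, was at 878 and 330 CPM.

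Of the hypoxia list, 2 of 8 genes were higher, the glucose transporter gene Slc2a1 at 8.28 and 71.4 CPM and Ldha at 238 and 556 CPM. Glucocorticoid response genes gave 3 of 7 higher (Fkbp5 at 27.6 and 75.7 CPM, Zbtb16 at 24.9 and 80.1 CPM, Sgk1 at 74.7 and 170 CPM). Of the cardiac mesenchyme transcription factors, 1 of 15 was higher (Runx1, 10.2 and 58.4 CPM, below B cells at 111 and 131 CPM) and 2 were lower (Tcf21 and Tbx20, the latter at 168 and 59.1 CPM). Complement gave 1 higher and 2 lower of 8, with C1ra at 181 and 75.7 CPM, and Tagln, a contractile gene, was at 24.4 and 241 CPM while Acta2 was at 25.7 and 37.1 CPM. Of the guidance genes 0 of 7 passed 2-fold, and Ntn4 (netrin 4), higher in Pi16+ than in Pi16- fibroblasts in both libraries (77.7 against 29.3 CPM and 75.8 against 29.0 CPM), did not differ between the libraries past 2-fold. Proliferation genes were nearly all below the floor, with Pcna at 37.8 and 54.8 CPM.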
